A study of Homo sapiens with 16 samples.

Results

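Long intergenic non-coding RNAs (lincRNAs) are transcripts from regions between protein-coding genes that encode no known protein. The set described here holds the 361 rows of the deposited gene count table with the biotype lincRNA and at least 3 CPM (a gene's count scaled to a library total of 1e6) in both libraries of at least 1 of 8 groups. The table has 30813 genes, of which 3584 carry that biotype, and 12892 genes of any biotype met the same level. The members were chosen by their levels in all groups. Levels, folds, p-values and counts of changed members below are therefore a description, except for counts over members chosen in libraries outside the test. A member with no counts on drug in either line entered the set through off-drug groups where it was high.

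Some lincRNAs act in the nucleus, where they scaffold nuclear bodies or bind chromatin near their own gene, and others bind proteins or RNAs in the cytoplasm. Others are known mainly as the precursors of microRNAs or small nucleolar RNAs cut from their transcripts. In melanoma, several are transcribed next to lineage genes, and the best known of these, SAMMSON, lies beside MITF, the master transcription factor of melanocytes.

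The study measured total RNA by sequencing in 2 human melanoma cell lines, A375 and 451Lu, both labelled as resistant to dabrafenib, an inhibitor of the kinase BRAF, and trametinib, an inhibitor of the kinase MEK. The A375 cells were kept on dabrafenib at 0.5 µM with trametinib at 0.05 µM, or moved to the solvent DMSO for 6, 24 or 48 h. The 451Lu cells were kept on dabrafenib alone at 1 µM, per the treatment notes, or moved to DMSO for 24, 72 or 120 h. Each group had 2 libraries. Line and drug treatment cannot be told apart, and 24 h is the only time off drug that the lines share. No label tells if paired libraries were grown as separate cultures. The p-values therefore reflect the variation among these libraries alone, and that variation may be technical.

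Libraries held between 9714190 and 16691725 counts, so 3 CPM stood for at least 29.1 counts. The melanocyte markers MITF, SOX10, PMEL, MLANA, TYR, DCT and S100B were present on drug in both lines, from 81.8 to 9670 CPM, and TYRP1 was low at 12 CPM in A375 and 1.73 CPM in 451Lu. Of the 7 markers of other cells in the table, COL3A1 was at 0 and DCN, CD14 and COL1A1 were under 1 CPM on drug in both lines. The leukocyte marker PTPRC was at 2.89 CPM in A375 and 0 in 451Lu on drug, and the endothelial marker VWF at 1.22 and 1.003 CPM. The fibroblast marker LUM was at 24.9 CPM in A375 and 152 CPM in 451Lu on drug and went to 5.18 CPM at 120 h in 451Lu, while COL1A1 went from 0.314 to 6.699 CPM and DCN from 0.096 to 3.57 CPM there. Off drug the lineage markers fell, DCT to 97.5 CPM at 48 h in A375 and 0.197 CPM at 120 h in 451Lu from 3565 and 143 CPM on drug, and mitochondrial genes took their largest shares of counts on drug. In such bulk libraries fewer cells of a type and less RNA per cell cannot be told apart, and the part of either, or of these markers' cells, in the results was not tested. KRT5, KRT14, CD3E and CDH5 had no row under these names in the count table, so they could not be checked. Levels below are CPM scaled by TMM factors over the 16 libraries, and folds come from each line's own fit.

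The members were rare transcripts. All but 1 of them, which is counted but not described further, took between 0.305% of a library's counts (A375 at 24 h) and 0.42% (A375 on drug). Their level averaged over the 16 libraries had a median of 3.34 CPM. The level was met in both lines by 160 members, in A375 alone by 121 and in 451Lu alone by 80. It was met in all 8 groups by 67 members and in a single group by 94, of which 41 met it in A375 on drug alone. The members just inside the rule were RP11-166P13.3 and RP1-29C18.9 at 3.03 CPM in the lower library of their best group, and those just outside were CH17-189H20.1 at 2.996 CPM and AC004840.9 at 2.993 CPM.

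The 10 most abundant members are given here. LINC00657, which is named NORAD and binds Pumilio proteins in the cytoplasm, was first, at a mean of 565 CPM. MALAT1, a nuclear speckle RNA, followed at 372 CPM, then CASC7 at 129.7 CPM, NEAT1, the scaffold of paraspeckles, at 127 CPM, LINC00511 at 93.0 CPM and LINC00998 at 82.2 CPM. The others were MIR146A at 68.1 CPM, RP11-785H5.1 at 45.0 CPM, RP11-145M9.4 at 44.8 CPM and NUP50-AS1 at 44.0 CPM. Per kilobase of exon, LINC00657 stood at 105.9 CPM, MALAT1 at 42.1, BANCR at 22.1 and NEAT1 at 5.60. LINC00998 and RP11-785H5.1 are protein-coding in GENCODE 29, the genes SMIM30 and SMIM10L1, and 8 members in all are now so classed. Of 323 members with an entry in GENCODE 29, 288 are still lincRNAs.

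In A375, more members fell than rose at each time off drug. In 451Lu more members rose than fell at 72 and 120 h. Among all genes tested, rises outnumbered falls only slightly at these times, and the difference between the splits was not tested. Of 13851 genes, 4742 rose and 4629 fell at 72 h, and 5161 rose and 5063 fell at 120 h. At 6 h in A375, 75 of the 323 members tested were higher and 161 lower at an adjusted p under 0.05 (edgeR quasi-likelihood test, Benjamini-Hochberg over all genes tested), against 35.1% and 38.1% of all genes tested, or 73.3% in both directions. At 24 h, 76 were higher and 150 lower, against 36.2% and 36.3% (72.6% called). At 48 h, 81 were higher and 142 lower, against 36.6% and 36.0% (72.6% called).

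In 451Lu, 309 members were tested. At 24 h, 70 were higher and 79 lower, against 29.2% and 24.9% of all genes (54.1% called). At 72 h, 96 were higher and 78 lower, against 34.2% and 33.4% (67.7% called). At 120 h, 116 were higher and 92 lower, against 37.3% and 36.6% (73.8% called). The median log2 change of the tested members ran from -0.39 at 6 h to -0.21 at 48 h in A375, and from 0.00 at 24 h to 0.08 at 72 h in 451Lu, beside medians of all genes between -0.06 and 0.03.

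**Figure D1:**
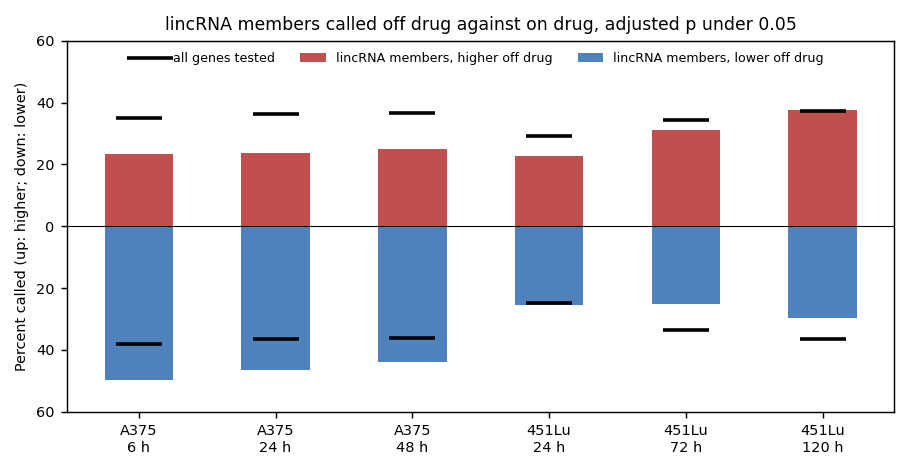
Percent of tested lincRNA members called higher (bars above 0) or lower (bars below 0) off drug at each time, with black marks for all genes tested. In A375 the bars reach further below 0 than the marks at 6, 24 and 48 h, with 161, 150 and 142 members lower.

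The larger share of falls in A375 also stood among members chosen in libraries outside the test. Of 202 tested members that met the level in some 451Lu group, 54 rose and 100 fell at 6 h in A375, where 40.2% and 37.7% of all genes chosen the same way did. At 24 h 49 rose and 90 fell, against 40.4% and 35.5%, and at 48 h 52 rose and 87 fell, against 40.3% and 35.8%. In 451Lu, 229 members chosen in A375 were tested. At 24 h 48 rose and 53 fell (31.3% and 26.3% of genes), at 72 h 65 and 50 (34.3% and 36.2%), and at 120 h 80 and 63 (36.8% and 39.4%).

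Fewer members were called in the last step of each course than in the step before it. In A375, 105 members were higher and 101 lower at 24 h than at 6 h, against 5133 and 4947 of 14449 genes (69.8% called). At 48 h, 49 members were higher and 30 lower than at 24 h, against 2048 and 2270 genes (29.9% called). In 451Lu, 78 members were higher and 41 lower at 72 h than at 24 h, against 3589 and 3537 of 13851 genes (51.4% called). From 72 h to 120 h, where 2297 genes were higher and 2234 lower (32.7% called), 44 members were higher and 20 lower. The last count of 64 was 39 without replicate 2 of 451Lu at 72 h and 41 without replicate 1 at 120 h, and the A375 count of 79 for the step to 48 h was 51 without replicate 1 at 24 h.

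A small group rose from near 0 in both lines. LUCAT1, described as a stress-responsive lincRNA (chr5:91303029-91314402, GRCh38), stood at 0.276 and 0.32 CPM in A375 on drug, 4.69 and 4.92 at 6 h, 5.67 and 6.79 at 24 h, and 6.95 and 5.00 at 48 h. Its 451Lu levels were 0 and 0.058 CPM on drug, 5.89 and 4.54 at 24 h, 10.8 and 7.38 at 72 h, and 18.0 and 13 at 120 h. Every library off drug was above every library on drug in both lines. The rise in A375 was 15.3-fold at 6 h (log2 3.94, SE 0.35, adjusted p = 3.8e-12) and 19.1-fold at 48 h. In 451Lu, where the on-drug libraries held 1 count between them, the ratio of counts at 120 h was 500-fold (95% counting interval 89.1 to 19806). Its fitted log2 changes there, 7.02, 7.77 and 8.54, were 6.29, 7.04 and 7.81 without replicate 1 on drug and 8.96, 9.71 and 10.48 without replicate 2 on drug.

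LINC00973 (chr3:98981058-98983096), described as induced in drug-treated cancer cells, stood at 0 and 0.192 CPM in A375 on drug and reached 3.24 and 4.11 at 6 h, 3.86 and 2.86 at 24 h, and 12.8 and 9.999 at 48 h. In 451Lu it stood at 0 and 0.232 CPM on drug, 1.65 and 0.771 at 24 h, 2.25 and 2.00 at 72 h, and 3.51 and 2.70 at 120 h. All off-drug libraries were above all on-drug libraries. The count ratio in A375 was 41.2-fold at 6 h (95% counting interval 13.6 to 204) and 128-fold at 48 h (43.3 to 624), and the 451Lu fold rose from 9.47 at 24 h to 22.9 at 120 h. The on-drug libraries set these sizes: without A375 on-drug replicate 1 the log2 changes of 5.19, 5.10 and 6.83 were 4.15, 4.06 and 5.79, and without replicate 2 they were 8.60, 8.50 and 10.23. The 451Lu changes of 3.24, 3.98 and 4.52 were 2.39, 3.13 and 3.67 without on-drug replicate 1 and 6.89, 7.62 and 8.16 without replicate 2, and the change at 24 h was 2.56 without replicate 1 at that time.

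LINC01050 (chr13:42810366-42812562) had no counts on drug in either line. It thus entered the set through off-drug levels, and its folds and p-values are a description. It reached 1.87 and 1.43 CPM at 6 h, 2.41 and 1.39 at 24 h and 0.616 and 0.862 at 48 h in A375, and 1.36 and 0.514, 6.74 and 2.89, and 7.80 and 4.54 CPM at 24, 72 and 120 h in 451Lu. Against a floor of 3 counts over the 2 on-drug libraries it was at least 22.3-fold higher at 24 h in A375 (adjusted p = 1.9e-09) and at least 66.7-fold higher at 120 h in 451Lu (adjusted p = 4.4e-07). The libraries of 1 time differed widely in 451Lu, and the fitted log2 changes of 6.62 at 24 h and 8.87 at 72 h were 5.69 and 8.21 without replicate 1 of that time. Fitted log2 changes against a group with no counts depend on the prior count and are no bound, also where the library left out held the only counts of its group.

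LINC01615, the GENCODE 29 name of a row listed under a clone name (chr6:169158092-169162924), stood at 0.0552 and 0.064 CPM on drug in A375, 0.767 and 0.894 at 6 h, 8.44 and 7.03 at 24 h, and 4.75 and 4.31 at 48 h. In 451Lu it went from 0 and 0.116 CPM on drug to 2.15 and 1.20 at 24 h, 3.59 and 4.79 at 72 h and 4.80 and 3.76 at 120 h. Its level was highest at 24 h in A375, where the count ratio was 132-fold (95% counting interval 36.2 to 1100), and no off-drug library overlapped an on-drug one.

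Of the members, 122 matched a RefSeq promoter (250 bases before to 50 after the start, GRCh38.p14) by name, place and strand. The AP-1 transcription factors, dimers of FOS and JUN proteins, bind the letters TGACTCA or, on the other strand, TGAGTCA. The looser heptamer TGANTCA, which also admits TGAATCA and TGATTCA, was searched on both strands. It was in 20 of these 122 promoters (16.4%), in 7.71% of all 35116 promoters and in 5.07% of the promoters of genes of any biotype that met the level. The AP-1 letters proper were in 16 of the 122 (13.1%), 4.95% and 3.49%, a split made after the data were seen. The promoters of LUCAT1 and LINC00973, LINC01050 and LINC01615 each hold 1 match, in capitals. Between its first base and the start lie 51, 48, 25 and 102 bases. The match is TGAGTCA in LUCAT1 and LINC00973 and TGAATCA in LINC01050 and LINC01615. These 4 promoters were chosen after the values of their members were seen. In order, they lie at chr5:91314353-91314652 on the minus strand, chr3:98980805-98981104 on the plus strand, chr13:42812513-42812812 on the minus strand and chr6:169162252-169162551 on the minus strand.
LUCAT1: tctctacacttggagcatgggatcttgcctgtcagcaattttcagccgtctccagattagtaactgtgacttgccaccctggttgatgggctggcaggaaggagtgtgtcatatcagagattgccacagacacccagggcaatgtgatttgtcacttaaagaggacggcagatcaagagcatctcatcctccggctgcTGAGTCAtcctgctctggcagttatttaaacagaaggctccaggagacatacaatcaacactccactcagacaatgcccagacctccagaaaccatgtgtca
LINC00973: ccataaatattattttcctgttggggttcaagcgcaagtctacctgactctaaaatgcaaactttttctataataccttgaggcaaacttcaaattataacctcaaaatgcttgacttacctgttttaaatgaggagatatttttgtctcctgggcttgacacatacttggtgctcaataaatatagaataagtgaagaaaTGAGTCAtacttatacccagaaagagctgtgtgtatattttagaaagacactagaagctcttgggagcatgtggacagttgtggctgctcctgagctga
LINC01050: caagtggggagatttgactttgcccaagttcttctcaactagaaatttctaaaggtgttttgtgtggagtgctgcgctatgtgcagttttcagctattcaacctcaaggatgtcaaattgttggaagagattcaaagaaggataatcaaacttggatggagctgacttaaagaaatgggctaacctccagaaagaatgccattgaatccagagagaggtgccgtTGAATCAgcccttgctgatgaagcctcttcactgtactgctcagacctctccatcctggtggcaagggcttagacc
LINC01615: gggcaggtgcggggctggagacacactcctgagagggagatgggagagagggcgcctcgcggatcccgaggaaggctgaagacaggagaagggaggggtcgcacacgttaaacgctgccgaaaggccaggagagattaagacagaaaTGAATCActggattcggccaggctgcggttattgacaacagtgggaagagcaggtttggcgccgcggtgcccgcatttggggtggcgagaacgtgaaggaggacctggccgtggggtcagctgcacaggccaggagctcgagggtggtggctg

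Among members with a promoter, TGANTCA was in 7 of the 20 that were higher at 6 h in A375 (35.0%) and 9 of the 66 that were lower (13.6%). At 24 h in 451Lu it was in 10 of 30 higher (33.3%) and 2 of 28 lower (7.14%). Among members higher by at least 2-fold, 7 of 14 held it at 6 h in A375 and 8 of 21 at 24 h in 451Lu, where 7.43% and 8.94% of genes of any biotype that rose as much did. Of members lower by at least 2-fold, 7 of 36 (19.4%) and 2 of 16 (12.5%) held it, where 5.65% and 7.44% of genes that fell as much did. The AP-1 letters proper were in 5 of the 14 and 6 of the 21 that rose, and in 6 of the 36 and 2 of the 16 that fell. At 120 h in 451Lu, TGANTCA was in 10 of 48 higher members (20.8%) and 4 of 26 lower (15.4%), and in 6.27% and 4.24% of the genes called higher and lower. LINC00152 and MIR4435-1HG, near-identical copies, both count among the matches. The other members with a match that rose include LINC00702 and CTD-2171N6.1 in 451Lu and LINC00460 in A375, while LINC01531 and LINC01411 hold a match and fell. A match is a description of letters, not a binding site.

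Other motifs searched the same way were the cyclic AMP response element TGACGTCA (3 of 122 members, 1.85% of all promoters), the E-box CACGTG (9, 7.26%) and the M-box TCATGTG (4, 2.92%), which overlap other E-box forms, and the EGR site GCGGGGGCG (6, 5.07%). The ETS core CCGGAAG was in 21 (10.3% of all), a fixed form of the serum response element in 0 (0.0342%), and an NF-kB form in 1 (0.558%). Some of these also split by direction. The M-box was in 1 of 20 higher and 1 of 66 lower members at 6 h in A375, and in 4 of 30 and 0 of 28 at 24 h in 451Lu. The ETS core was in 2 of 20 higher and 14 of 66 lower at that A375 time, and in 4 of 30 and 3 of 28 at that 451Lu time. No split was tested.

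AC112721.1 and AC112721.2 lie 7045 and 14545 bases from COL6A3, a collagen VI chain, at chr2:237421420-237425276 and chr2:237428920-237434822. AC112721.1 had no counts on drug in either line, so it too entered the set through off-drug levels and its folds and p-values are a description. It stood at 1.79 and 1.43 CPM at 6 h, 4.88 and 4.91 at 24 h and 4.75 and 4.48 at 48 h in A375, and at 6.03 and 4.29, 15.1 and 13.2, and 18.3 and 14.6 CPM at 24, 72 and 120 h in 451Lu. Against the floor it was at least 55.1-fold higher at 24 h in A375 and at least 176-fold higher at 120 h in 451Lu (adjusted p = 7.6e-15 and 3.0e-11). COL6A3 itself went from 0.504 to 121 CPM in A375 at 24 h and from 1.02 to 415 CPM in 451Lu at 120 h.

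AC112721.2 rose by a count ratio of 130-fold at 24 h in A375 (95% counting interval 22.9 to 5181) and by at least 216-fold at 120 h in 451Lu. Its A375 log2 changes of 5.76, 6.6 and 7.01 were 4.83, 5.68 and 6.09 without on-drug replicate 1, and 7.82, 8.67 and 9.08 without on-drug replicate 2, the library that held its single on-drug count.

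RP5-907D15.4, named LINC01711, stood at 0.0552 and 0 CPM on drug in A375, 4.17 and 3.67 at 6 h, 3.02 and 2.94 at 24 h and 5.46 and 5.60 at 48 h. In 451Lu it stood at 0.136 and 0.116 on drug, 1.87 and 1.89 at 24 h, 4.72 and 4.59 at 72 h and 5.91 and 5.31 at 120 h. All off-drug libraries were higher, by 187-fold in counts at 48 h in A375 (95% counting interval 32.9 to 7428) and by 41.1-fold at 120 h in 451Lu (log2 5.36, SE 0.36, adjusted p = 1.0e-09). The A375 log2 changes of 6.63, 6.24 and 7.13 were 8.66, 8.27 and 9.16 without on-drug replicate 1 and 5.90, 5.51 and 6.40 without replicate 2.

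LINC01059, which is 65226 bases from GRAMD1B, a sterol transport protein gene, had no counts on drug in A375, 0.426 and 0.268 CPM at 6 h, 3.74 and 4.74 at 24 h and 7.13 and 5.52 at 48 h, and at most 0.0857 CPM in any 451Lu library. It was at least 71-fold above the floor at 48 h in A375. GRAMD1B went from 2.11 to 413 CPM there, and was at 0.318 CPM or less in every 451Lu group.

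RP11-20G13.3, named LINC02244, peaked at 6 h in A375: 0 and 0.064 CPM on drug, 7.07 and 8.58 at 6 h, 1.39 and 0.327 at 24 h, and 0.088 and 0.345 at 48 h. The 6 h libraries stood above all others, with a count ratio of 264-fold to on drug (95% counting interval 46.7 to 10466), while its fitted log2 change of 7.62 was 6.70 and 9.69 without on-drug replicate 1 and 2. In 451Lu every library was at 0.20 CPM or less. RP11-13A1.1, named LINC02458, was also high at 6 h in A375, at 3.75 and 3.67 CPM against 0 and 0.064 on drug. Its log2 change of 6.55 was 5.62 and 8.61 without on-drug replicate 1 and 2. At 24 h in A375 it was at 0.362 and 0.327 CPM (adjusted p = 0.0054). In 451Lu it was highest at 120 h, at 8.74 and 4.83 CPM against 0 on drug.

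AC003092.1 rose late in 451Lu, from 0.0681 and 0.232 CPM on drug to 2.15 and 1.54 at 24 h, 9.88 and 8.48 at 72 h and 29.4 and 17.3 at 120 h, a 139-fold change (log2 7.12, SE 0.40, adjusted p = 8.2e-11). It rose in A375 too, at lower levels: from no counts on drug to 0.596 and 0.715 CPM at 6 h, 0.301 and 0.409 at 24 h and 0.792 and 0.862 at 48 h, at least 7.36-, 3.9- and 9.31-fold above the floor (adjusted p = 2.4e-05, 0.00075 and 4.0e-06). RP11-753N8.1, named LINC02392, reached 9.17 and 4.34 CPM at 120 h in 451Lu from 0 on drug, at least 73.4-fold above the floor. The 120 h libraries of both differed, and the log2 change of RP11-753N8.1, 9.38, was 8.71 without replicate 1 at 120 h. At 72 h it was 7.35, 6.17 without replicate 1 and 8.09 without replicate 2 of that time. With no counts on drug, these log2 changes depend on the prior count and are no bound.

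**Figure D2:**
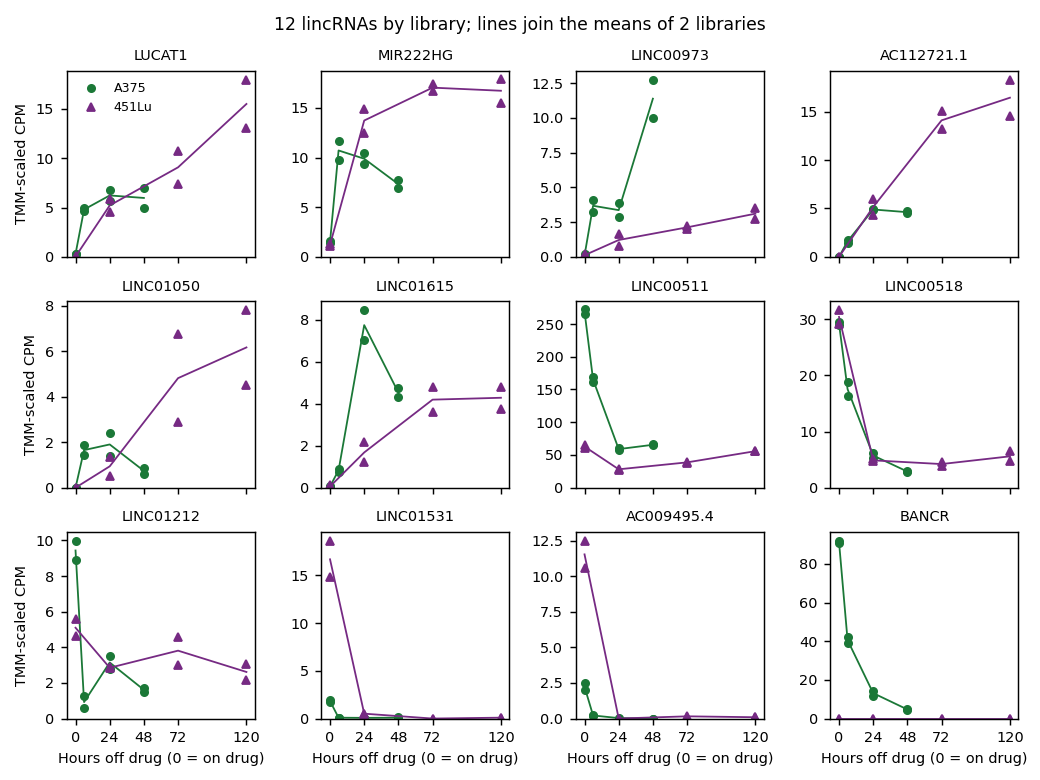
TMM-scaled CPM of 12 lincRNAs in each library against hours off drug (0 is on drug), circles for A375 and triangles for 451Lu, with lines through the means of 2 libraries. LUCAT1 climbs to 18.0 and 13 CPM at 120 h in 451Lu, and BANCR falls from about 91 CPM in A375 with no counts in 451Lu.

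MicroRNA host genes give rise to a short RNA cut from a hairpin in their transcript, and the counts here are of the host, not of the mature microRNA. RefSeq places 18 hairpins in 12 members on the same strand. Mature forms of some of these hosts are shown with the seed (bases 2 to 8) in capitals. Hosts on different chromosomes share the let-7 seed and the miR-9 seed. MIR222HG (chrX:45745211-45770274) holds miR-221 and miR-222, which share 1 seed, MIRLET7BHG (chr22:46053869-46113928) and RP11-631N16.2 hold let-7 hairpins of 1 seed, and LINC00925 and LINC00461 each hold a miR-9 hairpin.
hsa-miR-221-3p: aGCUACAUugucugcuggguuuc
hsa-miR-222-3p: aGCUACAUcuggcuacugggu
hsa-let-7a-5p: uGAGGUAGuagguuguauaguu
hsa-let-7b-5p: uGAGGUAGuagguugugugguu
hsa-let-7i-5p: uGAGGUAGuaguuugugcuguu
hsa-miR-9-5p: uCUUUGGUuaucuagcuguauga
hsa-miR-210-3p: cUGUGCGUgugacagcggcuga
hsa-miR-146a-5p: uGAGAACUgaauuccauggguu
hsa-miR-29b-3p: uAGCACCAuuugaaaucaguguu

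MIR222HG stood at 1.38 and 1.60 CPM on drug in A375, 9.80 and 11.6 at 6 h, 10.4 and 9.33 at 24 h and 7.74 and 6.90 at 48 h. In 451Lu it stood at 1.09 and 1.33 CPM on drug, 14.9 and 12.5 at 24 h, 17.4 and 16.7 at 72 h and 17.9 and 15.5 at 120 h. Off-drug and on-drug libraries did not overlap in either line. It rose 6.99-fold at 6 h in A375 (log2 2.81, SE 0.19, adjusted p = 6.2e-15) and 13.9-fold at 72 h in 451Lu (log2 3.79, SE 0.19, adjusted p = 3.7e-11), and its level on drug did not pass the test between lines (log2 -0.28, SE 0.30, adjusted p = 0.40).

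The row named MIR29B1 is the gene LINC-PINT in GENCODE 29, a p53-linked RNA. It stood at 1.05 and 0.832 CPM on drug in A375, 8.43 and 8.05 at 6 h, 15.3 and 14.8 at 24 h and 12.4 and 10.7 at 48 h. Its 451Lu levels were 8.10 and 9.17 on drug, 69.9 and 61 at 24 h, 35.8 and 31.4 at 72 h and 41.0 and 31.7 at 120 h. It rose 15.4-fold at 24 h in A375 (log2 3.94, SE 0.19, adjusted p = 1.5e-19) and 7.72-fold at 24 h in 451Lu (log2 2.95, SE 0.13, adjusted p = 8.7e-12), with no overlap between on and off drug.

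MIRLET7BHG rose in A375 from 3.20 and 3.78 CPM on drug to 23.5 and 24.7 at 48 h (6.78-fold, adjusted p = 1.9e-19) and in 451Lu from 9.39 and 10.2 to 24.3 and 18.3 at 120 h (2.16-fold, adjusted p = 2.2e-05). The 451Lu change at 24 h, log2 0.74, missed the threshold without replicate 1 at 24 h (adjusted p = 0.056). MIR210HG, host of a microRNA known for induction by hypoxia, rose in 451Lu alone by the tests made, from 1.02 and 1.39 CPM on drug to 11.4 and 10.2 at 120 h (8.72-fold, adjusted p = 8.7e-09). In A375 it lay between 0.431 and 1.16 CPM in all libraries, and the difference between lines in the 24 h change was log2 2.21 (SE 0.56, adjusted p = 0.0018).

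MIR22HG moved in opposite directions by 24 h. In A375 it stood at 2.70 and 2.62 CPM on drug, 12 and 10.9 at 6 h, 1.57 and 0.491 at 24 h and 2.02 and 0.776 at 48 h, and in 451Lu at 6.12 and 6.32, 15.3 and 14.1, 25.6 and 24.6, and 35.5 and 31.8 CPM from on drug to 120 h. The A375 rise at 6 h was 4.18-fold (adjusted p = 4.0e-11), and the fall at 24 h, log2 -1.30, was -2.45 without replicate 1 at 24 h. The fall at 48 h, log2 -0.96, was -1.79 without replicate 1 at 48 h and -0.43 without replicate 2, where the adjusted p was 0.26. The difference between lines at 24 h was log2 2.50 (SE 0.36, adjusted p = 2.2e-06).

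The row named MIR146A is MIR3142HG in GENCODE 29, and it fell in A375 from 75.2 and 77.9 CPM on drug to 40.9 and 39.0 at 48 h and rose in 451Lu from 57.6 and 57.5 to 156 and 126 at 120 h (1.96-fold lower and 2.42-fold higher, adjusted p = 1.8e-15 and 3.7e-10). LINC00925 had 10.1 and 8.19 CPM at 48 h in A375 against 5.19 and 4.86 on drug and at most 0.058 CPM in 451Lu libraries. MIR4458HG lay between 2.73 and 4.86 CPM in A375 and at 0 in every 451Lu library. The list of miRNA hosts was matched by name, and 8 of its 24 entries were members. It differs from the 12 members with a hairpin given above. On the list, MIR22HG and MIR4458HG hold no RefSeq hairpin on the same strand. Members such as LINC00669 and MIR29B1 hold a hairpin but are not on it. At 48 h in A375 and 120 h in 451Lu, LINC00669 was lower in both lines and MIR29B1 higher in both. The counts that follow cover the listed members only. In A375, 4 of 8 rose and 1 fell at 6 h, and in 451Lu 6 of the 6 tested rose at 24 h, with median log2 changes of 0.99 and 1.00. Over all members tested, 75 of 323 rose and 161 fell at 6 h in A375. At 24 h in 451Lu, 70 of 309 rose and 79 fell. No list here was tested against all members.

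LINC00152, named CYTOR, and MIR4435-1HG, now MIR4435-2HG, are near-identical copies on chromosome 2, so reads may be split between them and their separate values are uncertain. LINC00152 stood at 13.5 and 12.5 CPM on drug in A375, 33.0 and 35.1 at 6 h, 16.6 and 15.5 at 24 h and 14.3 and 16.3 at 48 h. In 451Lu it went from 15.4 and 13 CPM on drug to 31.1 and 26.5 at 24 h and 5.40 and 5.50 at 120 h. It was thus 2.54-fold above on drug at 6 h in A375 and 2.62-fold below at 120 h in 451Lu (adjusted p = 4.9e-15 and 4.2e-07). MIR4435-1HG had 50.1 and 53.7 CPM at 6 h in A375 against 17.7 and 17.5 on drug, and 7.88 and 5.89 CPM at 120 h in 451Lu against 29.1 and 28.3. Its small rise at 24 h in 451Lu (log2 0.37) was not called without on-drug replicate 2 or 24 h replicate 1 (adjusted p = 0.080 and 0.11), and the A375 rises at 24 h of LINC00152 (log2 0.27) and MIR4435-1HG (log2 0.29) were not called without 24 h replicate 1 (adjusted p = 0.14 and 0.067), nor that of LINC00152 without on-drug replicate 2 (0.12).

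In the list of RNAs described as induced by growth factor, cytokine, stress or hypoxia signals, 11 of 18 entries were members. In A375, 6 rose and 4 fell at 6 h, with a median log2 change of 1.10. In 451Lu, 8 of the 10 tested rose and 2 fell at 24 h. Over all members tested, 75 of 323 rose and 161 fell at 6 h in A375, and 70 of 309 rose and 79 fell at 24 h in 451Lu. LINC00473, a target of cyclic AMP signalling that overlaps PDE10A, went from 27.8 and 30.5 CPM on drug to 44.8 and 45.0 at 24 h in A375 and from 40.6 and 47.2 to 15.6 and 19.5 in 451Lu. LINC00460 rose in A375 from 0.993 and 0.640 CPM on drug to 6.25 and 8.10 at 48 h (8.38-fold, adjusted p = 1.7e-12) and was at most 0.112 CPM in 451Lu. Its call at 6 h (log2 1.10) was lost without on-drug replicate 2 or 6 h replicate 1 (adjusted p = 0.074 and 0.24).

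LINC00511, on the same list, fell in both lines. It stood at 272 and 266 CPM on drug in A375, 168 and 162 at 6 h, 60.5 and 57.3 at 24 h and 66.3 and 64.8 at 48 h. In 451Lu it stood at 60.3 and 65.4 on drug, 27.2 and 29 at 24 h, 37.6 and 39.7 at 72 h and 56.0 and 55.6 at 120 h. The A375 groups did not overlap, and the 451Lu level came close to the on-drug level again by 120 h. It was 4.67-fold lower at 24 h in A375 (log2 -2.22, SE 0.05, adjusted p = 1.0e-28) and 2.20-fold lower at 24 h in 451Lu (log2 -1.14, SE 0.08, adjusted p = 2.8e-09). At 120 h in 451Lu the change was log2 -0.19, which was not called without on-drug replicate 2 (adjusted p = 0.21).

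The melanoma and melanocyte list had 6 of its 14 entries among the members, and most fell. In A375, 2 rose and 4 fell at 6 h, 1 rose and 4 fell at 24 h, and 1 rose and 5 fell at 48 h, with medians of log2 -0.99, -1.05 and -1.67. In 451Lu, 2 of 5 rose and 3 fell at 24 h, 0 rose and 4 fell at 72 h, and 0 rose and 5 fell at 120 h, with medians of -0.81, -1.34 and -2.01. Over all members tested, 161, 150 and 142 of 323 fell at 6, 24 and 48 h in A375. In 451Lu, 79, 78 and 92 of 309 fell at 24, 72 and 120 h.

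LINC01212 is SAMMSON (chr3:69999577-70015318), 31240 bases from MITF. It stood at 8.88 and 9.98 CPM on drug in A375, 0.596 and 1.25 at 6 h, 2.77 and 3.52 at 24 h and 1.5 and 1.72 at 48 h, and in 451Lu at 4.63 and 5.57 on drug, 2.87 and 2.83 at 24 h, 3.03 and 4.59 at 72 h and 2.14 and 3.09 at 120 h. All A375 libraries off drug were below those on drug, by 10.4-fold at 6 h (log2 -3.38, SE 0.25, adjusted p = 2.5e-14), or log2 -3.99 without replicate 2 at 6 h. The 451Lu change was log2 -0.81 at 24 h (adjusted p = 0.0074), which was not called without on-drug replicate 2 (adjusted p = 0.089), and -0.41 at 72 h, which did not pass the test (adjusted p = 0.13). MITF went from 383 to 57.4 CPM at 6 h and 112 CPM at 24 h in A375, so both were higher at 24 h than at 6 h.

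BANCR (chr9:69296682-69306977), an RNA named for its link to activated BRAF, stood at 90.9 and 91.8 CPM on drug in A375, 39.1 and 42.0 at 6 h, 11.9 and 14.4 at 24 h and 4.40 and 5.00 at 48 h. Each group was below the one before it, and the fall at 48 h was 19.8-fold (log2 -4.31, SE 0.10, adjusted p = 1.2e-28). In 451Lu all 8 libraries were at 0.

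LINC00518 (chr6:10429255-10434874), 9596 bases from TFAP2A, a neural crest transcription factor gene, stood on drug at 28.9 and 29.5 CPM in A375 and 29.1 and 31.7 CPM in 451Lu and did not pass the test between lines (log2 0.06, SE 0.09, adjusted p = 0.54). It fell to 16.4 and 18.8, 5.25 and 6.22, and 2.99 and 2.76 CPM at 6, 24 and 48 h in A375, and to 5.03 and 4.71, 3.93 and 4.49, and 4.71 and 6.47 CPM at 24, 72 and 120 h in 451Lu. No library off drug reached an on-drug level in either line. The 24 h folds were 5.28 in A375 and 6.11 in 451Lu (adjusted p = 1.1e-19 and 1.1e-10), and their difference did not pass the test (log2 -0.28, SE 0.19, adjusted p = 0.26). TFAP2A fell 3.12-fold and 1.84-fold at the same time.

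CASC15, 66153 bases from SOX4, fell from 7.89 and 7.66 CPM on drug to 1.58 and 0.943 at 24 h in 451Lu (5.88-fold, adjusted p = 2.3e-07). In A375 it fell to 1.62 and 1.43 CPM at 6 h from 5.57 and 4.80, and was at 5.13 and 4.99 at 24 h (log2 -0.08, adjusted p = 0.69). LINC00520 rose in A375 from 1.93 and 1.41 CPM on drug to 6.30 and 6.08 at 6 h, and in 451Lu went from 15.7 and 14.6 to 6.25 and 5.21 at 120 h. Its call at 24 h in 451Lu, log2 0.29, did not hold without any 1 of the 4 libraries compared (adjusted p from 0.067 to 0.19). LINC01291 went from 15.7 and 12.9 CPM to 26.1 and 26 at 6 h and 8.80 and 8.45 at 48 h in A375. In 451Lu it ended at 1.37 and 1.74 CPM from 6.94 and 5.51. Its changes at 24 h, log2 -0.46 in A375 and 0.57 in 451Lu, were not called without A375 on-drug replicate 1 (adjusted p = 0.060), nor without 451Lu on-drug replicate 2 or 24 h replicate 1 (0.12 and 0.079).

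AC009495.4 had the largest fitted fall of the members at 24 h in both lines. It and AC009495.3 overlap each other at chr2:165794857-165846091 and chr2:165833048-165839098, so their reads may be shared. AC009495.4 lies 175 bases from GALNT3, a glycosyltransferase gene. AC009495.4 stood at 2.48 and 1.98 CPM on drug in A375, 0.256 and 0.179 at 6 h, 0.0603 and 0 at 24 h and 0 and 0 at 48 h. In 451Lu it went from 10.6 and 12.5 CPM on drug to 0 and 0 at 24 h, 0.112 and 0.20 at 72 h and 0.0857 and 0.0965 at 120 h. It was 10.2-fold lower at 6 h in A375 (adjusted p = 1.9e-07) and at least 99.1-fold lower at 24 h in 451Lu (adjusted p = 2.2e-10). At 24 h in A375 the log2 change of -5.72 rested on 1 count and was -7.91 without replicate 1 at 24 h and -5.05 without replicate 2. GALNT3 fell from 21.0 to 1.23 CPM at 6 h in A375 and from 135 to 0.709 CPM at 24 h in 451Lu.

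AC009495.3 went from 12.8 and 11.9 CPM on drug to 0.503 and 0.514 at 24 h in 451Lu, 23.4-fold lower (log2 -4.55, SE 0.26, adjusted p = 3.3e-10). Its log2 changes at 72 h and 120 h, -7.61 and -6.41, rested on 1 and 3 counts, and were -10.30 and -6.69 without replicate 1 and 2 at 72 h and -7.07 without replicate 2 at 120 h.

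LINC01531 (chr19:35399511-35419385) stood at 14.8 and 18.6 CPM on drug in 451Lu, 0.503 and 0.514 at 24 h, 0 and 0 at 72 h and 0.0857 and 0.0965 at 120 h. In A375 it stood at 1.93 and 1.73 CPM on drug and at 0.176 or less in every library off drug. It fell 31.7-fold at 24 h in 451Lu (log2 -4.99, SE 0.26, adjusted p = 2.2e-10), and by a count ratio of 21.1-fold at 6 h in A375 (95% counting interval 5.59 to 178). At 48 h in A375 the log2 change of -4.29 was -7.70 without replicate 1 and -3.35 without replicate 2 of that time.

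RP11-1055B8.3, 10115 bases from BAHCC1, fell in A375 from 12.2 and 13.1 CPM on drug to 5.11 and 4.47 at 6 h, 0.603 and 0.491 at 24 h and 0.352 and 0.345 at 48 h (36.1-fold, adjusted p = 1.6e-18). In 451Lu it fell from 6.87 and 6.32 CPM to 0.431 and 0.686 at 24 h (11.6-fold, adjusted p = 5.9e-08). LINC01411 went in A375 from 3.81 and 4.10 CPM on drug to no counts at 48 h, at least 30.2-fold lower. RP11-396O20.2, with 3.53 and 2.82 CPM on drug, was at least 24.5-fold lower at 48 h, and its change at 24 h, log2 -4.86, was -4.24 without replicate 1 and -5.56 without replicate 2 of that time.

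In 451Lu, KU-MEL-3 went from 7.55 and 7.89 CPM on drug to 0.144 and 0.0857 at 24 h and to no counts at 120 h, at least 56.8-fold lower. At 72 h its log2 change of -6.94 rested on 1 count and was -6.15 and -9.63 without replicate 1 and 2 of that time. RP3-527G5.1 went from 6.33 and 7.25 CPM to 0.0718 and 0 at 24 h and no counts at 120 h, at least 50.1-fold lower. Its log2 changes of -7.09 at 24 h and -4.94 at 72 h were -9.37 and -4.07 without replicate 1 of that time and -6.35 and -9.45 without replicate 2.

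A few falls in A375 were deepest at 6 h. RP4-798A10.7 had 2.81 and 2.43 CPM on drug, 0.17 and 0.358 at 6 h, and 4.58 and 4.09 at 24 h. LINC01301 had 2.81 and 4.29 CPM on drug, 0.256 and 0.358 at 6 h and 0.422 and 0.736 at 24 h. RP11-328N19.1, named LINC02475, had 3.59 and 2.24 CPM on drug, 0.17 and 0.268 at 6 h and 0.784 and 1.64 at 24 h. Their folds at 6 h were 10.02, 11.5 and 13.4 (adjusted p = 1.8e-08, 3.5e-09 and 1.2e-07), and the first, log2 -3.32, was -3.91 without replicate 2 at 6 h.

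Of the nuclear and structural RNAs, 6 of 14 entries were members, and in A375 1 rose and 4 fell at 6 h while 3 rose and 2 fell at 48 h (median log2 -0.27 and 0.21). In 451Lu 3 rose at each time, and 1, 0 and 1 fell at 24, 72 and 120 h (median 0.27, 0.59 and 0.75). Over all members tested, 75 of 323 rose and 161 fell at 6 h in A375, and 81 rose and 142 fell at 48 h. In 451Lu, 70, 96 and 116 of 309 rose at 24, 72 and 120 h, and 79, 78 and 92 fell. NEAT1 (chr11:65422774-65445540) dipped and returned in A375: it stood at 159 and 163 CPM on drug, 42.0 and 40.1 at 6 h, 99.98 and 97.2 at 24 h and 251 and 213 at 48 h. In 451Lu its libraries lay between 101 and 159 CPM at all times. The A375 fall was 4.02-fold at 6 h (log2 -2.01, SE 0.07, adjusted p = 8.0e-24) and the level at 48 h was 1.41-fold above on drug (adjusted p = 8.8e-10). The call at 24 h in 451Lu, log2 0.34, was lost without on-drug replicate 1 or 24 h replicate 2 (adjusted p = 0.22 and 0.15).

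MALAT1 (chr11:65497762-65506516) rose in both lines. In A375 it stood at 125 and 154 CPM on drug, 159 and 168 at 6 h, 277 and 342 at 24 h and 650 and 434 at 48 h, and in 451Lu at 151 and 191, 448 and 562, 549 and 534, and 548 and 660 CPM from on drug to 120 h. It was 3.81-fold higher at 48 h in A375 and 3.49-fold higher at 120 h in 451Lu (adjusted p = 4.9e-18 and 4.3e-10), and its change at 6 h did not pass the test (log2 0.20, adjusted p = 0.10). A second row with this name, of protein-coding biotype, overlaps it, so its reads may be split.

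LINC00657 (chr20:36045622-36050960) lay between 279 and 350 CPM in A375, where it was 1.26-fold lower at 24 h (adjusted p = 7.4e-08), and rose in 451Lu from 521 and 522 CPM on drug to 546 and 561 at 24 h, 947 and 903 at 72 h and 1262 and 1259 at 120 h. That was 2.39-fold (log2 1.26, SE 0.05, adjusted p = 2.2e-12). CRNDE was 1.81-fold lower at 24 h in A375 (adjusted p = 5.1e-09), and its calls at A375 6 h and at 451Lu 24 h and 120 h each were lost without 1 library: 6 h replicate 2 (adjusted p = 0.068), on-drug replicate 1 or 24 h replicate 1 (0.38 and 0.31), and on-drug replicate 1 (0.080). JPX, an activator of X inactivation, fell 1.48-fold at 6 h in A375 (adjusted p = 1.1e-05). Its fall at 48 h, log2 -0.33, was not called without on-drug replicate 1 (adjusted p = 0.10).

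Of the p53-linked list, 4 of 12 entries were members, 2 rose and 2 fell at 6 h in A375, and 1 rose and 2 fell at 120 h in 451Lu. Over all members tested, 75 of 323 rose and 161 fell at that A375 time, and 116 of 309 rose and 92 fell at that 451Lu time. TP53TG1 fell in A375 from 11 and 11.5 CPM on drug to 5.19 and 3.28 at 48 h (2.72-fold, adjusted p = 1.1e-09), and PVT1, 53099 bases from MYC, rose 1.72-fold at 6 h in A375 and fell 1.97-fold at 120 h in 451Lu (adjusted p = 4.6e-09 and 1.2e-05). MYC went from 86.7 to 306 CPM in A375 at 24 h, a later time than the 6 h given for PVT1. In 451Lu MYC went from 178 to 71.2 CPM at 120 h.

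Of the small nucleolar RNA hosts, 6 of 26 entries were members, and few rose: 1 at each A375 time, with 3, 3 and 2 falling, and 0 at each 451Lu time, with 3, 2 and 2 falling. Over all members tested, 75, 76 and 81 of 323 rose at the A375 times and 161, 150 and 142 fell. In 451Lu, 70, 96 and 116 of 309 rose and 79, 78 and 92 fell. The host that rose was SNHG15, from 23.3 and 25.6 CPM on drug to 54.9 and 49.98 at 6 h in A375 (2.09-fold, adjusted p = 2.4e-14). Its call at 24 h, log2 0.21, was lost without on-drug replicate 1 or 24 h replicate 1 (adjusted p = 0.23 and 0.25). SNHG8 fell in 451Lu from 53.1 and 48.9 CPM to 21.3 and 20.8 at 120 h (2.44-fold, adjusted p = 5.7e-10) and lay between 23.0 and 27.8 CPM in all A375 libraries. SNHG19 fell in both lines, 1.74-fold at 24 h in each. SNHG18 fell 2.58-fold at 6 h in A375, and its call at 24 h in 451Lu, log2 -0.55, was lost without on-drug replicate 2 or 24 h replicate 1 (adjusted p = 0.15 and 0.24).

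CASC7 and NUP50-AS1 were abundant members that rose off drug. CASC7, 1664 bases from AGO2, an Argonaute protein of microRNA silencing, stood at 82.3 and 87.5 CPM on drug in A375, 413 and 376 at 6 h, 139.8 and 145 at 24 h and 153 and 126 at 48 h, and at 20.5 and 28.4, 76.9 and 74.0, 80.1 and 83.4, and 95.9 and 93.0 CPM in 451Lu. AGO2 went from 61.6 to 297 CPM at 6 h in A375 and from 19.96 to 78.5 CPM at 24 h in 451Lu. CASC7 rose 4.54-fold and 3.13-fold at those times. NUP50-AS1, 60 bases from NUP50, a nucleoporin gene, stood at 17.3 and 16.3 CPM on drug in A375, 21.2 and 21.8 at 6 h and 107 and 106 at 24 h, whereas NUP50 was highest at 6 h, at 797 CPM against 137 on drug and 266 at 24 h.

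Across the lines, 271 members were tested in both at 24 h. Of 65 higher in A375 and 61 higher in 451Lu, 38 were the same members, 58.5% and 62.3% of the lists, against 49.4% and 62.9% for the 11941 genes of any biotype that met the level and were tested in both. Of 122 lower in A375 and 61 lower in 451Lu, 38 were shared, 31.1% and 62.3%, against 40.2% and 55.3% for those genes. Opposite calls were made for 6 members higher in A375 and lower in 451Lu and 12 the other way, among them LINC00473 in the first set and NEAT1, MIR22HG and MIR146A in the second. Pearson's r between the 2 sets of log2 changes was 0.72 and Spearman's rho 0.43 over these 271 members, against 0.54 and 0.41 over those genes. The changes of each line came from its own fit and normalization. Genes of a line share its libraries and are not independent replicates. At the last times, 48 h and 120 h, 50 members were higher in both (of 72 and 103, 69.4% and 48.5%, against 48.1% and 51.4% for the genes). At those times 43 were lower in both (of 113 and 72, 38.1% and 59.7%, against 47.5% and 44.1%), 9 were higher in A375 and lower in 451Lu, and 29 the other way.

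**Figure D3:**
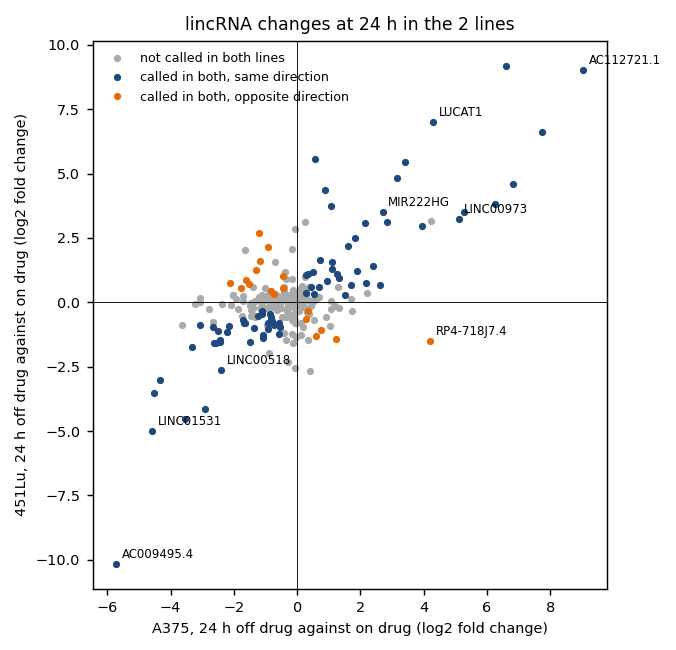
Log2 fold change at 24 h off drug in A375 (x axis) and 451Lu (y axis) for the 271 members tested in both lines; blue points were called in both lines in 1 direction and orange points in opposite directions. RP4-718J7.4 lies alone at the lower right, at 4.20 and -1.5.

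On drug, 104 of 361 members were higher in 451Lu and 161 lower than in A375. Of all 15481 genes tested, 6084 were higher and 5871 lower (77.2% called). Some members were at 0 in a whole line: 8 of the 360 described had no counts in the 8 A375 libraries and 21 none in the 8 451Lu libraries (2.22% and 5.83%), against 0.489% and 0.783% of genes of any biotype that met the level. Such members entered the set through the other line alone, and 11811 of those 12892 genes are protein-coding. The part of the members' low levels in this contrast was not tested. In A375 alone stood BANCR, RP11-488I20.9 at 42.5 and 43.6 CPM, LINC00221 at 23.7 and 22.0, RP11-744I24.3 at 21.0 and 24.2, LINC00200 at 9.82 and 11.6 and LINC00648 at 10.5 and 9.28. LINC00221 and RP11-488I20.9 changed little off drug, with folds of at most 1.18 and 1.45. In 451Lu alone stood RP11-252C15.1 at 24.8 and 27.4 CPM, HCG22 at 19.8 and 22.3, RP11-333A23.4 at 8.57 and 8.70 and LINCR-0002 at 5.99 and 6.32. Against the floor, BANCR was at least 972-fold higher in A375 and RP11-252C15.1 at least 295-fold higher in 451Lu.

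Of members high in 451Lu on drug, 4 are described over time. RP11-252C15.1 went to 3.16 and 2.91 CPM at 24 h and 1.03 and 1.06 at 120 h (25.1-fold, adjusted p = 1.7e-12). AC104655.3, with 21.5 and 23.7 CPM on drug and at most 0.172 CPM in A375, went to 1.89 and 1.35 CPM at 120 h (13.9-fold, adjusted p = 1.0e-11). DKFZP434L187 went from 20.1 and 19.6 CPM to 1.54 and 1.74 (12.2-fold, adjusted p = 1.5e-11). HCG22, in the major histocompatibility region, went to 6.94 and 6.66 CPM (3.13-fold, adjusted p = 1.0e-08). The log2 line difference of DKFZP434L187 on drug, 8.98, rested on 1 count in A375 and was 8.04 and 10.99 without A375 on-drug replicate 1 and 2.

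**Figure D4:**
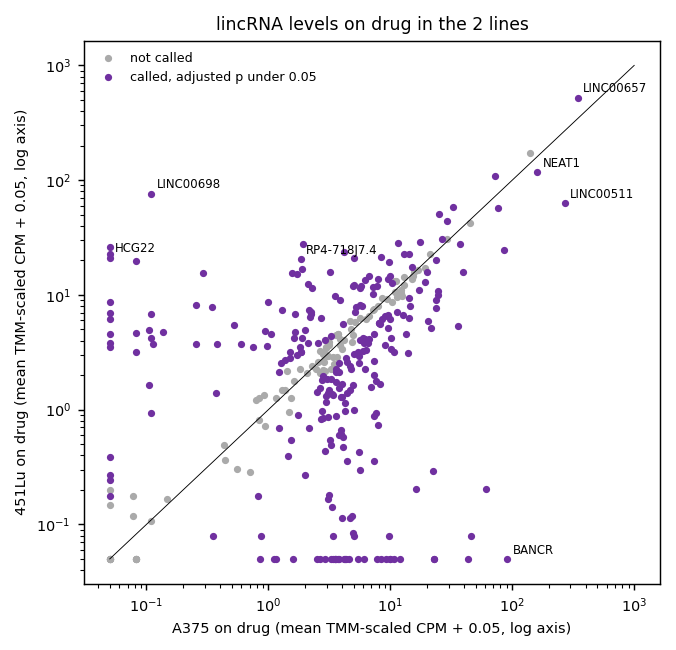
Mean TMM-scaled CPM on drug in A375 (x axis) and 451Lu (y axis) of the 360 described members, both log axes with 0.05 added, the line marking equal levels and purple points those called between lines. The points along the bottom edge have no counts in 451Lu, with BANCR furthest to the right.

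The change at 24 h differed between the lines for 147 of 361 members, 98 more positive in 451Lu and 49 more positive in A375. Of all 15481 genes tested, 3402 were more positive in 451Lu and 4240 more positive in A375 (49.4% called). RP4-718J7.4, named AL035541.1 in GENCODE 29 (chr20:57599695-57601200), moved furthest apart. It stood at 2.1 and 1.47 CPM on drug in A375, 6.47 and 6.35 at 6 h, 35.8 and 32.0 at 24 h and 27.4 and 30.3 at 48 h. In 451Lu it stood at 20.4 and 20.2 CPM on drug, 6.61 and 7.54 at 24 h, 4.27 and 6.19 at 72 h and 6.94 and 5.98 at 120 h. Every A375 library rose above on drug and every 451Lu library fell below it, 18.3-fold higher and 2.82-fold lower at 24 h, a difference of log2 -5.75 (SE 0.20, adjusted p = 8.0e-18). Its neighbour ZBP1, 2646 bases away, was at 0.131 CPM or less in every group.

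LINC00937 fell in 451Lu from 15.2 and 16.6 CPM to 2.51 and 2.40 at 24 h and stood at 2.87 and 3.46 on drug and 4.04 and 4.50 at 24 h in A375, a difference of log2 -3.12 (SE 0.27, adjusted p = 4.8e-10). FAM225A rose in 451Lu from 0.544 and 1.16 CPM to 5.74 and 5.49 at 24 h and fell in A375 from 1.82 and 1.60 to 0.904 and 0.573. Its difference was log2 3.83 (SE 0.46, adjusted p = 1.1e-07), or 4.50 without 451Lu on-drug replicate 2. RP4-813F11.4, 1205 bases from MRPS33, fell in A375 from 61.1 and 61 CPM on drug to 6.51 and 7.61 at 24 h and was under 1 CPM in every 451Lu library. MRPS33 itself stood at 3715 CPM in A375 and 58.5 CPM in 451Lu on drug and fell 1.30-fold at 24 h in A375.

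In the comparisons of each off-drug time with on drug, correlations with the nearest protein-coding gene were larger for members than for protein-coding genes, a difference that was not tested. Of the members, 298 lie within 100 kb of a protein-coding gene of the table. Over pairs that do not overlap (190 tested in A375 and 182 in 451Lu), Pearson's r between the log2 changes was 0.44, 0.63 and 0.62 at 6, 24 and 48 h in A375 and 0.72, 0.66 and 0.57 at 24, 72 and 120 h in 451Lu. Between protein-coding genes that met the level and their nearest protein-coding neighbours, r lay between 0.11 and 0.16 over 5825 and 5572 pairs. Spearman's rho was 0.24 to 0.41 for members and 0.09 to 0.14 for protein-coding pairs. Within 5 kb, r for members was 0.17, 0.47 and 0.61 at 6, 24 and 48 h in A375. For protein-coding pairs it was 0.12, 0.14 and 0.15. In 451Lu the values within 5 kb were 0.80, 0.74 and 0.67 at 24, 72 and 120 h for members. They were 0.14, 0.18 and 0.16 for protein-coding pairs. Between successive off-drug times r was 0.14 and 0.30 in A375 and 0.28 and 0.09 in 451Lu for members, and 0.08 to 0.12 for protein-coding pairs. From 72 h to 120 h in 451Lu it was 0.0901 against 0.0879, and 0.0494 against 0.117 within 5 kb.

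The pairs of COL6A3 and GALNT3 lie far out. Without them r over the members' pairs within 100 kb was 0.25, 0.49 and 0.49 in A375 and 0.48, 0.49 and 0.40 in 451Lu. This leaving out was chosen after the plot was seen, and some members share a neighbour. Without strand information on the counting, reads of a neighbour's transcript that run into a member cannot be told apart from its own. At LINC01615, THBS2, a thrombospondin gene 52856 bases away, went from 2.16 to 31.6 CPM at 24 h in A375. RP11-30P6.6, named LINC02535, 59398 bases from NT5E, the gene of the ectonucleotidase CD73, went from 0.136 and 0.116 CPM on drug to 4.09 and 3.69 at 24 h in 451Lu (29.5-fold, adjusted p = 1.1e-07), and NT5E rose 29.3-fold, from 13.4 to 386 CPM. NT5E went on to 1870 CPM at 120 h while RP11-30P6.6 was at 3.77 and 2.22 CPM.

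**Figure D5:**
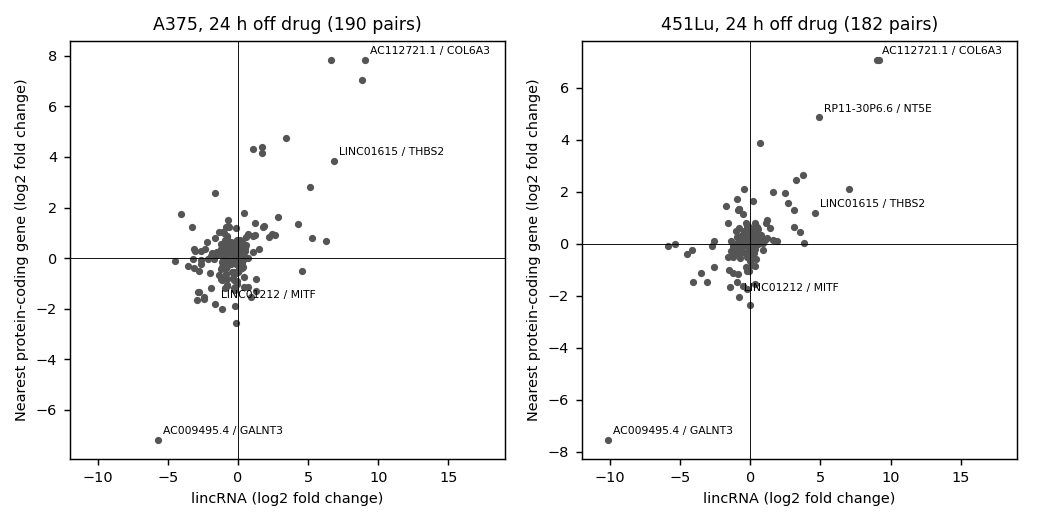
Log2 fold change at 24 h of each member (x axis) and of its nearest protein-coding gene within 100 kb (y axis), overlapping pairs left out, in A375 (190 pairs, left) and 451Lu (182 pairs, right). The COL6A3 pairs lie at the upper right and the GALNT3 pair at the lower left in both lines.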

How the data were processed

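Total RNA of 16 libraries (8 groups of 2) was sequenced. The values the authors deposited are raw counts, not normalized, with a gene per row and a library per column. The submitters' processing notes name TopHat2 2.1.0, Bowtie 1.0.0 and the build GRCh38; the counter, annotation release, strand setting and filters: not given in the sources used here. Gene starts and ends are as the table gives them, and 263 members have the same coordinates in GENCODE 29, which gave newer names and exon lengths.

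Counts were tested with edgeR 4.0.16 in R 4.3.3 (TMM, filterByExpr with a minimum count of 10, quasi-likelihood F test, Benjamini-Hochberg over all genes tested, threshold 0.05), once per line over its 8 libraries and once over all 16 for the comparisons between lines. The filter left 14449, 13851 and 15481 genes, and 38 and 52 members were not tested in A375 and 451Lu. Printed SEs are the absolute log2 change over the square root of F. Where a group held 0 counts, a bound against 3 counts over its 2 libraries is given, and for 1 to 3 counts the ratio of summed counts scaled to library size with a 95% Clopper-Pearson interval; these cover counting error only. The fit was tested on simulated counts. Library totals are in the text.

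Alternatives were RLE size factors, DESeq2 1.42.0, no filter, a test against a 1.5-fold change, the replicate number as a block, the joint fit, and each library left out in turn. The members, lists and naming rule were chosen with earlier results of these data known. Named were the 8 largest rises and falls among called members off drug against on drug and between lines, the 5 largest each way for the 24 h difference, the 10 most abundant members and members on 6 lists of known RNAs, with their nearest protein-coding gene within 100 kb. Not every gene so named is described; which of them to describe was decided after their values were seen. Promoter and microRNA sequences are from RefSeq.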

Additional observations from a re-analysis of the deposited data

Results flagged for a closer look

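The change after 24 h off drug differed between the lines for 147 members in the 16-library edgeR fit (interaction term, adjusted p under 0.05), where 49.4% of all genes tested differed. Among the named members with more than 3 counts in at least 1 of the on-drug and 24 h groups of each line, the difference (451Lu minus A375, log2) was -5.75 for RP4-718J7.4, -4.77 for RP11-141M1.3, -3.52 for LINC00698, -3.12 for LINC00937, 5.02 for LINC00869, 4.25 for RP4-813F11.4 and 3.83 for FAM225A. RP11-141M1.3 was at 0.29 CPM or less in 451Lu on drug and its call was lost without 451Lu on-drug replicate 2 or either 451Lu library at 24 h (adjusted p from 0.059 to 0.081). LINC00698 held at most 0.064 CPM in A375 on drug, and without A375 24 h replicate 1 its difference was -2.775 (adjusted p = 0.095). LINC00869 had no counts in 451Lu on drug, so its difference depends on the prior count and is no bound. RP11-54O7.1, AC016995.3 and LINC00565 were also called but had 3 counts or fewer in each of those groups in 1 line, where no fold can be given, and no value is given for them.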

How the results depend on the processing

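For the named members, 312 values were past the threshold, and none of these reversed direction in the alternatives. The 3726 alternative values computed include those of named values not past the threshold, whose direction is not judged here. Of the calls, 71 were lost in the test against a 1.5-fold change and 25 with DESeq2. Without the filter 3 were lost, in the joint fit 2 and with the replicate block 1. Some calls were also lost with a library left out, as given above. Tested against a 1.5-fold change, the numbers of members called were 142, 146 and 148 at 6, 24 and 48 h in A375, 126 and 5 for the A375 steps to 24 h and 48 h, 84 at 24 h in 451Lu, 49 and 13 for the 451Lu steps to 72 h and 120 h, and 76 for the line difference at 24 h. With DESeq2 the steps to 48 h in A375 and to 72 h and 120 h in 451Lu gave 24, 69 and 33. With 1 library left out, the numbers were 207 to 226, 202 to 217 and 201 to 221 at 6, 24 and 48 h in A375, 164 to 191 and 51 to 69 for the A375 steps, 116 to 136, 159 to 169 and 184 to 193 at 24, 72 and 120 h in 451Lu, 84 to 95 and 39 to 61 for the 451Lu steps, 243 to 256 between lines on drug and 125 to 135 for the line difference. Where leaving out a library left 1 in a group, that library was assumed to vary like the others. Cause was not tested; fewer samples and a stricter null lower such counts by construction. With the replicate number as a block, 236, 224 and 222 members were called in A375, 150, 183 and 209 in 451Lu, 266 between lines and 151 for the line difference. With it the steps gave 203 and 75 in A375 and 125 and 76 in 451Lu, against 119 and 64 without it for the latter. The correlation of same-numbered libraries' deviations lay between -0.039 and 0.023 in A375. In 451Lu it lay between -0.019 and 0.01 for on drug with each other group, and between 0.133 and 0.137 among the off-drug groups, so the numbers do not pair all groups. At 3 CPM a member rests on about 29.1 counts in the smallest library, and members near that level in 1 group and at 0 elsewhere have folds set by few counts.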
